A study of Mus musculus with 3 samples.

Results

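H3K4me1 enriched regions that lay inside protein-coding genes, 2 to 20 kb from a transcriptional start site (TSS), were examined in mouse islets exposed to 3 proinflammatory cytokines. A region was a member if it contained no TSS of a protein-coding gene, if its midpoint was more than 2 kb and at most 20 kb from the nearest such TSS, and if that midpoint fell within the span of a protein-coding gene. On chromosomes 1 to 19 of mm9, 14878 of 65124 regions met this rule, which is 22.8% (95% exact binomial interval 22.5 to 23.2). The whole list held 65709 regions. The islets came, per the labels, from CD1 mice aged 8 to 12 weeks. The study's methods call the mice ICR and give a narrower range of ages. The islets were cultured for 4 days with IFNγ at 1.6 ng/ml, Il-1β at 0.25 ng/ml and TNFα at 0.16 ng/ml. These doses were chosen by the study to be low. DNA from 4 ChIP experiments was pooled into 1 library, so there was no replicate and no difference below was tested over samples. The intervals cover counting error only. The deposited list gives where each region starts and ends and holds no read count, height or p-value, so the depth is unknown. Untreated islets were not analysed here, and none of the values below is a response to the cytokines.

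H3K4me1 is the monomethylation of lysine 4 of histone H3, placed by enzymes of the trithorax group family. It marks promoter flanks and enhancers, the DNA elements that bind transcription factors and raise transcription of a gene from a distance. Many enhancers lie in introns, often in an intron of the gene they act on, and the mark is found both at enhancers in use and at those that are poised. Islets are clusters of endocrine cells with vessels and other cells among them, and a list from whole islets cannot separate a region marked in all cells from one marked in a few.

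The sequence at some members is shown first, so that the letters searched for in all regions can be seen in place. For each of 10 short motifs of factors that act in islets or downstream of cytokines, the window below comes from the intronic member of a listed gene in which the match lay nearest to the midpoint. Each window has 80 bases of mm9 on the plus strand, centred on the match, and capitals mark the matched letters. The motifs were AP-1 (TGANTCA), NF-kB (GGGANTTTC), ISRE (GAAANTGAA), GAS (TTCCNGGAA), forkhead (TGTTTAC), RFX (GTTGCCATG), an E-box (CAGATG), a homeobox site (TAATTA), a Maf half-site (TGCTGAC) and HNF1 (GTTAATNAT), with N for any base, searched on both strands. The capitals in Gbp5, Chgb and Gata4 are the reverse complement of the motif. The HNF1 letters hold TAATTA when N is T, so these motifs overlap.
AP-1 in Meis1, chr11:18903365-18903444: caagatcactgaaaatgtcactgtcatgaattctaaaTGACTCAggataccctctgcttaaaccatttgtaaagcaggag
NF-kB in Birc2, chr9:7832076-7832155: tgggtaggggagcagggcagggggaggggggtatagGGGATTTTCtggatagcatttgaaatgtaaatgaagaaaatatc
ISRE in Gbp5, chr3:142163364-142163443: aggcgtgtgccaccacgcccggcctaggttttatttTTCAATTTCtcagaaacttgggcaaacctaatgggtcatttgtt
GAS in Cacna1a, chr8:86930115-86930194: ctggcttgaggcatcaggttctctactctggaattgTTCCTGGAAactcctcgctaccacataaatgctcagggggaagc
forkhead in Chgb, chr2:132610763-132610842: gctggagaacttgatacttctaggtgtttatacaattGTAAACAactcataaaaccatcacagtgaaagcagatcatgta
RFX in Rab27a, chr9:72899995-72900074: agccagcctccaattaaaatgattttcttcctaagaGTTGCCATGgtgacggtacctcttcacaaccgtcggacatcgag
E-box CAGATG in Gata4, chr14:63825966-63826045: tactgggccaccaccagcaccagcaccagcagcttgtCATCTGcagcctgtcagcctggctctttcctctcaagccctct
homeobox TAATTA in Zbtb20, chr16:43216261-43216340: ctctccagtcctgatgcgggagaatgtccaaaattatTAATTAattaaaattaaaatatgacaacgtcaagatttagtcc
Maf half-site in Stat4, chr1:52155640-52155719: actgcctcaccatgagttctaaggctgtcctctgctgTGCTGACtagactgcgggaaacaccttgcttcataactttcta
HNF1 in Bach2, chr4:32514514-32514593: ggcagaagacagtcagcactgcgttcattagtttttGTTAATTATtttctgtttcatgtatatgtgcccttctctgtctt

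The AP-1 window lies in intron 6 of Meis1, a homeobox transcription factor gene, in a region of 1.2 kb with its midpoint 5.73 kb from the nearest TSS. That TSS belongs to another gene, and the closest TSS of Meis1 is 8604 bp away. The forkhead window is in intron 1 of Chgb, which encodes the granule protein chromogranin B, and the RFX window is in intron 1 of Rab27a, a GTPase of granule exocytosis, inside a region of 13 kb. The NF-kB window is in intron 1 of Birc2, an inhibitor of apoptosis that acts in TNF receptor signalling, and the ISRE window is in intron 1 of Gbp5, an interferon-induced GTPase. The Gata4 window is in intron 2 and the Bach2 window in intron 3 of genes for transcription factors. A match of this kind is a description of the sequence, and binding of a factor was not measured in these data.

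Members were, in the median, slightly wider than proximal regions outside genes. Their median width was 1.4 kb (quartiles 0.8 and 3.0 kb, range 0.2 to 36.2 kb), against 1.2 kb for the 6354 proximal regions outside genes and 1.2 kb for the 11029 regions inside genes but 20 to 100 kb from a TSS. The median was larger inside than outside genes on 19 of 19 chromosomes. Over all distances it was 1.6 kb inside and 1.2 kb outside downstream of the nearest TSS, but 1.2 kb in both upstream. Regions over 5 kb made up 10.9% of members (1616 regions) and 5.21% of the proximal regions outside genes. Among regions inside genes at 20 to 100 kb the share was 9.004% (993 regions), closer to that of members. At the other end, 615 members (4.13%) were a single bin of 200 bp, the unit in which regions were called, against 2.83% of proximal regions outside genes and 3.03% of those inside genes at 20 to 100 kb. The rule limits widths near the start site, since a region that reaches a TSS is not a member. At 2 to 3 kb the widest member was 5.8 kb and 0.496% were over 5 kb, against 3.36% outside genes. The median at these distances was 1.8 kb inside genes and 1.4 kb outside. Downstream of the TSS it was 2.0 kb in both, and upstream it was 1.2 kb inside and 1.4 kb outside. At 4 to 6 kb, 17.5% of members were over 5 kb, against 6.01% outside genes. Together the members covered 35.7 Mb, 25.7% of all sequence in regions. The median gap to the nearest other region was 3.2 kb, against 4.6 kb for proximal regions outside genes. That nearest region was itself a member for 52.5% of members, and it covered a TSS for 20.8%.

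The 5 widest members were all intronic. They lay in Mast4, a microtubule-associated kinase gene (36.2 kb, chr13:103658201-103694400, midpoint in intron 4), and in Ptprf, which encodes a receptor tyrosine phosphatase (35.6 kb, chr4:117927001-117962600, intron 3). The others were in intron 1 of 0610040J01Rik (34 kb, chr5:64205601-64239600), in intron 1 of Mapkapk2, a kinase downstream of p38 (33.6 kb, chr1:132959201-132992800), and in intron 1 of Ell, an elongation factor of RNA polymerase II (32.6 kb, chr8:73064201-73096800).

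To ask whether gene bodies held more regions than the space they offer, members were set against eligible sequence, the positions at which a midpoint would have met the same distance and gene rule. There were 39.8 members per Mb of 374 Mb inside genes and 23.4 regions per Mb of 272 Mb outside, a ratio of 1.70. The ratio was above 1 on 19 of 19 chromosomes, from 1.25 on chromosome 11 to 2.23 on chromosome 16. By chromosome, the density inside genes ran from 32.9 to 44.7 per Mb and that outside from 16.0 to 34.3 per Mb, so these ranges overlapped at their ends. Regions of any class covered 11.6% of the eligible sequence inside genes and 4.43% of that outside.

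The density was highest close to the start site on the transcribed side. Downstream of the nearest TSS, there were 51.9 members per Mb at 2 to 3 kb, 43.3 at 3 to 4 kb, 40.5 at 4 to 6 kb and 37.3 at 15 to 20 kb. Sequence inside a gene can also lie upstream of the nearest TSS, where that TSS is internal or belongs to another gene. There the density stayed between 34.8 and 39.4 per Mb. Outside genes, it stayed between 19 and 27.3 per Mb on both sides. Of the members, 71.5% were downstream of the nearest TSS, against 69.3% of the eligible sequence. Just around the limits of the rule, there were 1184 regions in genes at 1.5 to 2 kb and 998 at 2 to 2.5 kb, with median widths of 1.4 and 1.8 kb. There were 215 at 19.5 to 20 kb and 203 at 20 to 20.5 kb, both with a median of 1.4 kb.

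**Figure D1:**
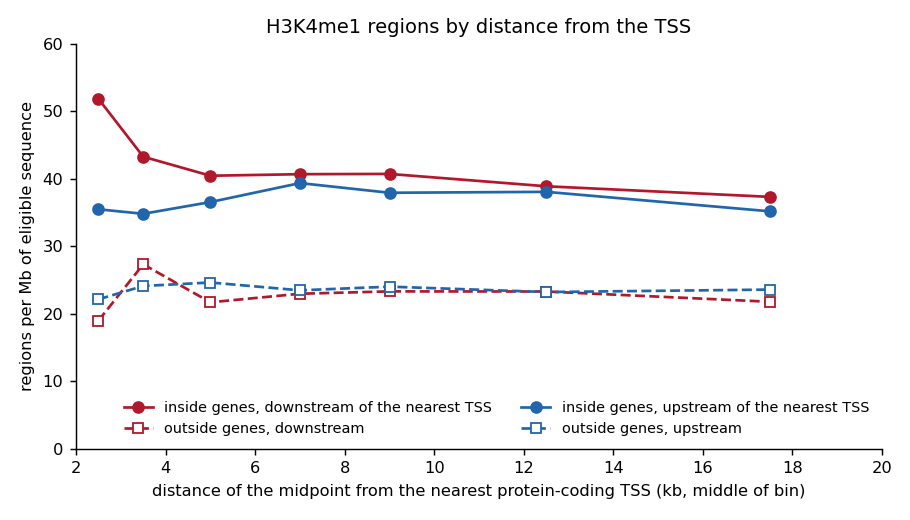
Regions per Mb of eligible sequence (y axis) by distance of the midpoint from the nearest protein-coding TSS in kb (x axis, middle of each bin), for regions inside genes (filled) and outside (open), downstream (red) and upstream (blue) of that TSS. The filled points lie above the open points in every bin, and the highest point is 51.9 per Mb at 2 to 3 kb downstream.

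Nearly all members were intronic, and intron 1 held the most. The midpoint was in an intron for 92.5% of members (92.0 to 92.9), in non-coding exon sequence for 4.34% and in coding sequence for 3.19%. The eligible sequence was 90.9% intronic and 4.08% coding. With introns counted along the longest coding transcript of the host gene, intron 1 held 6101 members, 41.0% (40.2 to 41.8), but 26.4% of the eligible sequence. The density was lower with each further intron, from 61.8 members per Mb in intron 1 to 44.0 in intron 2, 35.2 in intron 3, 29.3 in intron 4 and 25.5 in intron 5 or later. Width followed the same order at the start of the gene, with medians of 1.8 kb in intron 1, 1.6 kb in intron 2 and 1.2 kb in each later class. Regions of any class covered 21.8% of eligible sequence in intron 1 and 5.19% in intron 5 or later.

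Intron 1 is near a TSS and is often long, so the gradient was also read at fixed distance, at fixed intron length and within genes. In each of the 7 distance bins, intron 1 held more members per Mb (57.8 to 74.3) than introns 2 to 4 (34.8 to 41.4), and these held more than intron 5 or later (23.6 to 27.2). The ranges of these classes did not overlap. Among introns of up to 5 kb the density was 65.9 per Mb in intron 1, 37.0 in intron 2 and 21.3 in intron 5 or later. Among introns over 50 kb it was 53.3, 45.2 and 37.7 per Mb, so the order was the same and the spread smaller. In 3540 genes with at least 5 kb of eligible sequence both in intron 1 and in later introns, there were 67.9 members per Mb in intron 1 and 34.8 in later introns. Of these genes, 1721 had the higher density in intron 1, 792 had it in later introns, 1 had equal densities and 1026 had no member in either. By chromosome, intron 1 ran from 50.1 to 71.7 members per Mb and later introns from 24.9 to 35.3, with intron 1 higher on 19 of 19 chromosomes.

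**Figure D2:**
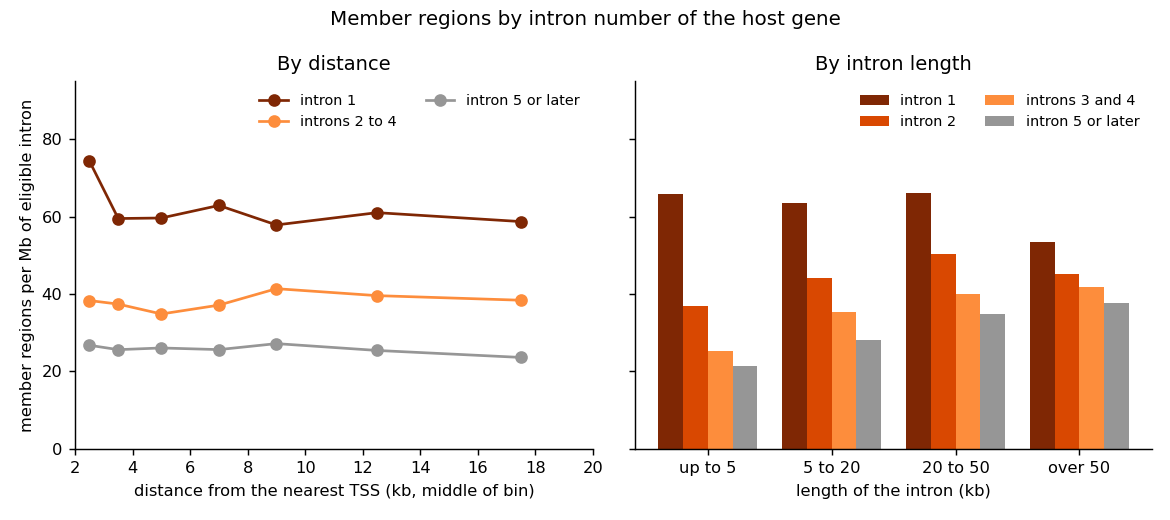
Member regions per Mb of eligible intron sequence (y axes) by distance from the nearest TSS in kb (left, middle of each bin) and by length of the intron in kb (right, bars from 0), for classes of intron number in the longest coding transcript. Intron 1 is highest in every bin of both panels, and intron 5 or later is lowest.

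Members were spread over many genes. They fell in 6733 host genes, of which 3384 held 1 member, 2691 held 2 to 4, 658 held 5 or more and 73 held 10 or more. Of 16532 protein-coding genes with at least 1000 bases of eligible sequence, 6709 held a member, 40.6%, which is the background for the gene lists below. This share was larger where more space was available, from 10.6% of genes with 1 to 5 kb of eligible sequence to 77.8% of those with over 40 kb, while members per Mb varied between 32.9 and 41.4. It was 44.5% of genes with a region over their own TSS, 50.8% of genes with none over it but 1 within 2 kb, and 28.9% of genes with neither, at densities of 40.4, 47.8 and 31.6 members per Mb. For 91.2% of members (90.8 to 91.7), the nearest protein-coding TSS belonged to the host gene, as it did for 88.6% of the eligible sequence. The share of members was 75.7% when TSS of every annotated gene were used and 82.3% with only the outermost TSS of each gene. A TSS of a gene that is not protein-coding lay within 1.53% of members.

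The gene with the most members, Gm20388, is a model of 4.43 Mb on chromosome 8 that holds 72 other protein-coding genes, and for all 42 of its members the nearest TSS belonged to another gene. The next were Arhgap26, an activating protein for small GTPases (25 members, 46.4 kb in all), Sgms1, a sphingomyelin synthase (20, 43.2 kb), and Kalrn, an exchange factor for small GTPases (20, 38.4 kb). Snd1, which encodes a nuclease-domain protein that binds RNA, held 19 members and had 53.9% of its 193.4 kb of eligible sequence in regions of any class, the highest share of the 10. Arhgap24, which acts on Rac, held 18. Prlr encodes the prolactin receptor, through which lactogens act on β-cells, and held 16 members with 43.8% of its eligible sequence in regions. Pam encodes the enzyme that amidates peptide hormones and held 16 members, with no region over any of its TSS. Fryl and Jmjd1c, a gene of the JmjC demethylase family, held 16 each. The genes with the most members nearest to another gene's TSS were Gm20388, Fgfr2 (10 of 11 members, in a model of 3.01 Mb that holds 31 other genes), 3110082I17Rik (6 of 7), Xpo7 (6 of 6) and Arfip1 (5 of 12).

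Genes of islet identity held members more often than the background of 40.6%. In the list of islet transcription factors, 22 of 29 genes with eligible sequence held a member, 75.9% (56.5 to 89.7), at 69.3 members per Mb against 39.8 over all genes. Long genes were more frequent in this list. The median eligible length was 18 kb in the list and over all genes, but the mean was 40.8 kb against 22.6 kb, and 34.5% of the list had over 40 kb, against 15.1% of all genes. Of the 19 genes with up to 40 kb, 12 held a member, 63.2% (38.4 to 83.7), against 33.9% of all genes with up to 40 kb. Zbtb20, a zinc finger factor that β-cells use in glucose control, held 15 members, the widest of them 6.2 kb. Bach2 held 10, St18 and Glis3 held 9 each, and Rfx3 held 8, of which the widest was 13.6 kb. Rfx6, needed for endocrine differentiation, held 4 members of 1.2 to 2.4 kb between intron 2 and intron 6. Nkx2-2 held 2 members (5.2 and 3.8 kb) that together with its other regions covered 81.9% of its eligible sequence. Pax6 held 1 member of 10.4 kb at its 3′ end, chr2:105535801-105546200, with the midpoint in exon sequence without coding bases. Pdx1 and Tshz1 held none, although regions that were not their members covered 40% and 100% of their eligible sequence. Nkx6-1 and Insm1 held none and had no eligible sequence in a region.

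Genes of hormone processing, secretion and glucose sensing gave 31 of 39 with a member, 79.5% (63.5 to 90.7), at 52.4 per Mb. Their mean eligible length was 33.3 kb, and of the 32 with up to 40 kb, 25 held a member, 78.1% (60.03 to 90.7). Pcsk2, a prohormone convertase, held a single member of 17 kb in intron 1 (chr2:143376401-143393400). Cpe, the carboxypeptidase that trims prohormones, held 3, all in intron 1, of 9.0, 0.8 and 5.4 kb. Slc2a2, the glucose transporter Glut2, held 2 of 4.4 and 0.6 kb, and Slc30a8, the zinc transporter of insulin granules, held 2 with 7.8 kb in all. Cacna1d, a calcium channel subunit, held 5 and Rab27a held 4, but for 3 members of each the nearest TSS was that of another gene, as it was for both members of Abcc8, a subunit of the ATP-sensitive potassium channel. Ins2, Gcg and Rims1 held none, and regions covered none of their eligible sequence. A region did cover a TSS of Ins2 and of Rims1, whereas none covered a TSS of Gcg. The model of Ins2 spans 20.9 kb, of which 15.8 kb was eligible.

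Genes that receive and relay the 3 cytokines held members about as often as the background or slightly more, with wide intervals. The median eligible length was 20.9 kb for receptors and adaptors, 10.8 kb for activated factors, 14.6 kb for interferon-induced genes and 8.4 kb for chemokines and cytokines. In the same order, regions of any class covered 23.5%, 33.8%, 15.5% and 17.5% of the eligible sequence, against 11.5% over all protein-coding genes. Of cytokine receptors and adaptors, 12 of 24 held a member, 50% (29.1 to 70.9), at 53.0 per Mb. Il1r1, the signalling receptor of Il-1, stood out by extent. It held 8 members of 48.6 kb in all, and 76.7% of its eligible sequence lay in regions. In order along the gene these were 5.4, 2.4, 5.4, 6.4, 0.2, 22.0, 1.6 and 5.2 kb wide, and the widest, chr1:40327001-40349000, lay downstream of the internal TSS. For 2 of the 8, the nearest TSS was that of another gene. Jak1, a kinase of the interferon receptors, held 6 members, 5 of them in intron 1, of 0.2 to 10.2 kb. Tab2, an adaptor of the kinase TAK1, held 4, all in intron 1, and Irak2, a kinase of the Il-1 pathway, held 4. Ifngr2, a chain of the IFNγ receptor, held 2 (3.6 and 1.2 kb), and Ifngr1 held none. Tnfrsf1a, the main TNFα receptor, also held none, but 97.3% of its 3.7 kb of eligible sequence lay in regions that were not its members.

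Of transcription factors activated by cytokines and their inhibitors, 13 of 31 held a member, 41.9% (24.5 to 60.9), at 59.6 per Mb. Nfkb1, which encodes the p50 subunit of NF-kB, held 4, of 4.2 and 15.2 kb in intron 1, 2.2 kb in intron 4 and 3.8 kb in intron 24. Batf, an AP-1 family factor, held 3 in intron 2, Irf2 held 2 in intron 1 (5.2 and 5.0 kb), and Nfkbiz and Socs2 held 2 each. Irf1, Nfkbia and Socs3, short genes that are rapid targets of these cytokines, held none, and regions that were not their members covered 100% of their eligible sequence. Stat3 also held none, with 82.7% of its 32.4 kb of eligible sequence in such regions. A count of members is thus no measure of all H3K4me1 in a gene.

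Of interferon-induced genes, 15 of 27 held a member, 55.6% (35.3 to 74.5), at 52.3 per Mb. Ptpn2, a phosphatase that restrains JAK and STAT signalling, held 4 members of 15 kb in all. Cd274, which encodes the checkpoint ligand PD-L1, held 3, of 8.2, 1.4 and 2.4 kb. B2m, the light chain of MHC class I, held 1 of 4.6 kb in intron 2, and Sod2, a mitochondrial superoxide dismutase, held 1 of 5.0 kb. Nos2, which makes nitric oxide, held none. Of chemokine and cytokine genes, 5 of 13 held a member, 38.5% (13.9 to 68.4), at 45.8 per Mb. Tnfsf10, the apoptosis ligand TRAIL, held 2 of 4.0 and 2.8 kb, and Il33, Il15, Csf1 and Cxcl12 held 1 each. Ccl2, Ccl20, Cxcl1, Cxcl2 and Cxcl10, chemokines that attract immune cells, had under 1000 bases of eligible sequence and were not counted. Of genes of ER stress and apoptosis, 10 of 21 held a member, 47.6% (25.7 to 70.2), at 61.7 per Mb. Cflar, an inhibitor of caspase-8, held 4, of 3.0, 11, 1.0 and 2.6 kb along the gene, Dnajc3, a chaperone of the ER, held 4, and Eif2ak3, the ER stress sensor PERK, held 4. Of genes of the trithorax group and other enzymes that modify H3K4, H3K27 or H3K36, 8 of 14 held a member, 57.1% (28.9 to 82.3), at 37.8 per Mb. Of subunits of H3K4 methyltransferase complexes, Setd1b and Paxip1 held 1 each, with 29.1% and 35.6% of their eligible sequence in regions, and Ncoa6 held 2, with 7.21%. Setd1a, Ash2l, Dpy30, Wdr5 and Rbbp5 held none, and regions covered 8.84% of the eligible sequence of Rbbp5 and none of that of the others. Kdm5b, an H3K4 demethylase, held 1 of 16.6 kb in intron 1, and Setd2, the H3K36 methyltransferase, held 5.

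**Figure D3:**
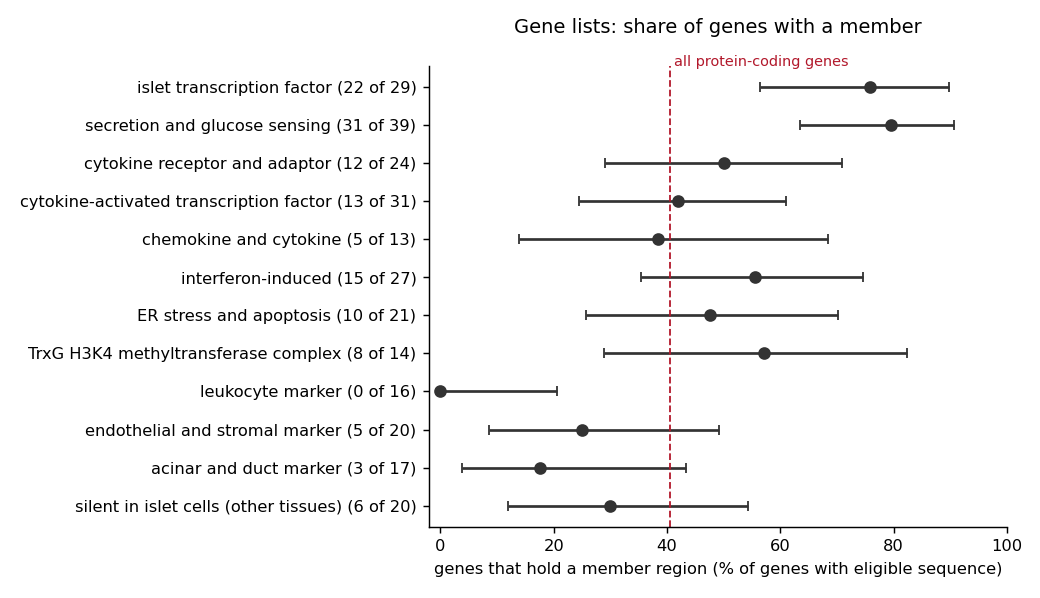
Share of genes with eligible sequence that hold a member, in percent (x axis), for 12 gene lists, with 95% exact binomial intervals (bars) and the numbers of genes in brackets. The dashed line is the 40.6% of all protein-coding genes, and the intervals of the islet transcription factor and secretion lists lie above it.

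Markers of other cells served as a check on the tissue. Of 16 leukocyte genes with eligible sequence, among them Ptprc, Cd3e, Itgam and Csf1r, 0 held a member (0 to 20.6%), 0 had a region over a TSS and none of their 194 kb of eligible sequence lay in a region. Their median eligible length was 10.4 kb. Of endothelial and stromal genes, 5 of 20 held a member, 25% (8.66 to 49.1), at 19.9 per Mb and with the median eligible length of all genes, 18 kb. In this list, 20% of genes had over 40 kb of eligible sequence, against 15.1% of all genes. Of the 16 with up to 40 kb, 1 held a member, 6.25% (0.158 to 30.2), against 33.9% of all genes with up to 40 kb. The 5 genes with a member were all endothelial, led by Pecam1 with 4 members of 19.4 kb in all. Vwf and Plvap held 2 each, and Flt1 and Tek 1 each. The endothelial genes Kdr, Cdh5, Emcn and Esam and the stromal genes Col1a1, Col3a1, Pdgfrb and Dcn held none, and none of their eligible sequence lay in a region. A region did cover a TSS of 11 of the 20 genes, among them Kdr, Esam, Col1a1, Pdgfra and Vim. Of acinar and duct genes, 3 of 17 held a member, 17.6% (3.80 to 43.4), at 27.3 per Mb. These genes are short, with a median of 3.7 kb of eligible sequence, and of all genes with 1 to 5 kb, 10.6% held a member. The duct keratin gene Krt7 held 1 of 15.4 kb, the chloride channel gene Cftr held 2 with 0.8 kb in all, and the acinar elastase gene Cela1 held 1 of 0.8 kb. The acinar enzyme genes Cpa1, Ctrb1, Prss2 and Pnlip and the duct genes Sox9 and Spp1 held none. A region covered a TSS of 6 of the 17 genes, Sox9 and Spp1 among them. Bhlha15, an acinar transcription factor gene, held no member but had a covered TSS and 72.7% of its eligible sequence in regions. Of genes used by other tissues, 6 of 20 held a member, 30% (11.9 to 54.3), at 22.9 per Mb and a median eligible length of 14.8 kb. Mbp, the myelin basic protein gene, held 5 with 25.2 kb in all, and Ttr, the transthyretin gene, which islet cells also use, held 1 of 5.4 kb.

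The maps of single genes show how members are placed around start sites. In Il1r1, a region of 19.4 kb over the outermost TSS was followed by 6 members up to 67.1 kb, and 3 small regions further on were over 20 kb from a TSS. In Nfkb1, members lay between 1.71 and 33.5 kb and again at the far end of the gene, beyond a region of 4.4 kb over an internal TSS. Cacna1d is a gene of 451 kb, in which the widest members (8.6 and 9.2 kb) came just after an internal TSS and many regions of other classes filled the stretch behind them. In Cflar, no region covered a TSS, and the widest member lay between 7.25 and 18.2 kb.

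**Figure D4:**
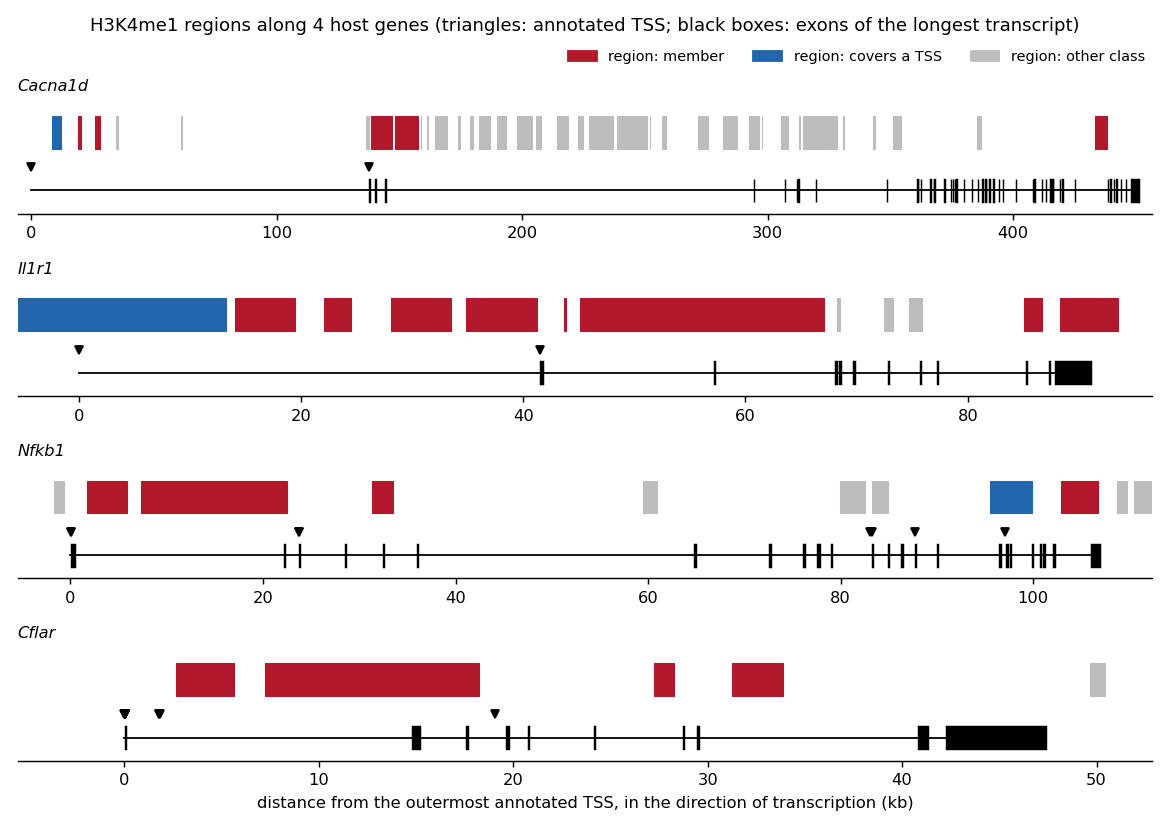
H3K4me1 regions along Cacna1d, Il1r1, Nfkb1 and Cflar by distance from the outermost annotated TSS in the direction of transcription (x axis, kb), each the gene whose members sum to the largest width in its list. Members are red, regions over a protein-coding TSS (of this or a neighbouring gene) blue and regions of other classes grey; triangles are annotated TSS and black boxes are exons of the longest coding transcript. Il1r1 holds 8 members, Cacna1d 5, Nfkb1 4 and Cflar 4.

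Base composition and short motifs were read in the central 200 bp of each region, and beside members in 18684 windows of the same length and gene class that lay 3 kb from a member's midpoint and outside all regions. Median GC was 45.25% in members, 44% in these windows and 47.5% in proximal regions outside genes. AP-1, the dimer of Fos and Jun family factors, had a match in 7.60% of members (7.18 to 8.04), in 5.33% of the windows beside them (5.01 to 5.66), in 8.44% of proximal regions outside genes and in 7.73% of all regions. The share was higher in members than in their windows on 19 of 19 chromosomes, and the same letters in reversed order gave 5.57% and 5.60%. The forkhead motif, read by Foxa factors among others, was in 3.91% of members, 2.70% of windows and 4.09% of all regions, and higher in members than windows on 18 chromosomes. The reversed forkhead letters gave 4.71% and 4.29%. The E-box CAGATG, used by Neurod1 and its relatives, was in 16.8%, 14.5% and 16.4%, and higher in members on 19 chromosomes. Its reversed letters gave 6.80% of members and 8.31% of windows.

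For the motifs tied to the cytokine signals, the picture was mixed. The GAS letters, to which STAT dimers bind, were in 0.80% of members, 0.503% of windows and 0.798% of all regions. The reversed GAS letters gave 0.423% of members and 0.300% of windows, so members over windows was a ratio of 1.59 for the motif and 1.41 for the reversed letters. The ISRE letters, read by interferon regulatory factors, were in 2.14%, 1.72% and 2.03%, and the reversed ISRE letters in 1.53% of members and 1.22% of windows, with ratios of 1.24 and 1.25. The NF-kB letters were in 0.612% of members (0.493 to 0.750), 0.685% of windows (0.572 to 0.814) and 0.725% of all regions, and were higher in members on 8 of 19 chromosomes. The reversed NF-kB letters gave 0.941% and 1.02%. The HNF1 letters were in 0.934%, 0.535% and 0.906%, the RFX letters in 0.356%, 0.219% and 0.361%, the Maf half-site in 3.44%, 2.95% and 3.63%, and TAATTA in 6.26%, 6.12% and 6.58%. Shares were higher in members than in windows on 16 of 19 chromosomes for HNF1, 14 for GAS and 13 for the Maf half-site. For ISRE this held on 12 chromosomes, for TAATTA on 11 and for RFX on 10. The reversed HNF1 letters were also more frequent in members than in windows, 0.659% against 0.508%, a ratio of 1.30 beside 1.75 for the motif. The reversed RFX letters were rare, in 0.0134% and 0.0107%. Those of the Maf half-site gave 0.397% and 0.412%, and those of TAATTA 5.65% and 6.04%. Around the midpoints, AP-1 matches went from 30.5 per 1000 members per 100 bp at 1.5 to 2 kb to 41.1 at the centre, and forkhead matches from 15.3 to 21.7. The values for NF-kB were 3.30 and 3.38. GC content moved with these counts, and its part in them was not tested. The reversed letters keep the base composition of a motif but not the order of its bases. Reversal adds a CpG, a C followed by a G, to the RFX and Maf letters, so their reversed shares are no like control.

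**Figure D5:**
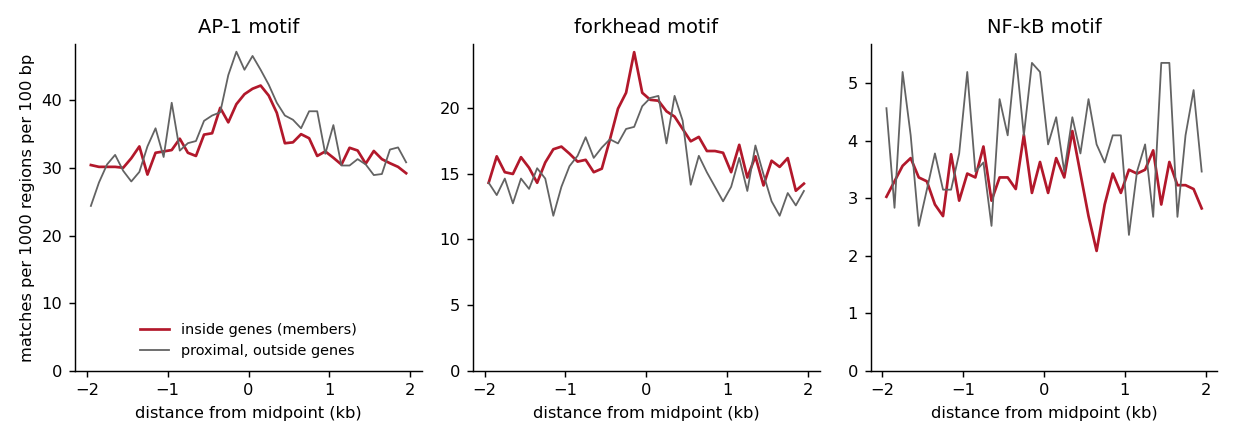
Motif matches per 1000 regions per 100 bp (y axes, each from 0) by distance from the region's midpoint in kb (x axes), for members (red) and for proximal regions outside genes (grey). AP-1 matches in members go from 30.5 at the edges to 41.1 at the centre and forkhead matches from 15.3 to 21.7, whereas NF-kB matches are 3.30 and 3.38.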

How the data were processed

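H3K4me1 ChIP-seq of 1 pooled library was analysed. Reads were mapped to mm9 by the authors, with Bowtie2 version 2.2.1 according to the submitters' processing notes, and enriched regions were called with ChromHMM in bins of 200 bp. The deposited list holds region positions only, with no counts, so depth and enrichment have no value or error here. The methods also describe a later filter on weak loci, and whether the list precedes it is not given in the sources used here. TSS, genes and introns came from GENCODE M1 on the same build, with no region beyond a chromosome end, whereas the study used other transcripts. Chromosomes other than 1 to 19 were not used.

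The host gene was the protein-coding gene around the midpoint whose own TSS was closest. Eligible sequence was counted at points 100 bp apart, genes with under 1000 eligible bases were left out of shares, and introns were numbered in the longest coding transcript. Of 324 symbols in 12 lists, 314 were found as protein-coding genes on these chromosomes and 271 had enough eligible sequence; gene models that share a symbol were pooled. A few listed genes are counted in the lists but not reported here by name, and printed windows and maps leave them out. Motifs were exact matches on both strands, without masking of repeats. Named genes were the 10 hosts with most members, the 5 widest members, the 5 hosts with most members nearest to another gene's TSS, and genes of the lists. Printed windows follow the rule given beside them. The members and lists were chosen with earlier results of these data known. With 1 library, no test was run and shares have 95% exact binomial intervals. On simulated data, 1260 of 1260 regions fell in their true class, 360 of 360 in their host gene, and 500 of 500 planted motifs were found. Versions were 3.11.15 for Python, 2.4.6 for numpy, 2.3.3 for pandas, 1.17.1 for scipy and 3.10.9 for matplotlib.

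Alternatives were a minimum width of 400 or 1000 bp, merging over gaps of up to 1000 bp, TSS of every gene or only the outermost TSS of each gene, distance from the nearest edge, whole regions inside genes, other introns and a 400 bp window. Leaving out gene models that hold 10 or more other genes was added after seeing the data.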

Additional observations from a re-analysis of the deposited data

How the results depend on the processing

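Of 83 values of 10 results under the alternatives, 49 moved by less than their counting interval or, for the number of members and the ratio of densities inside and outside genes, by under 1.5 times, and 34 moved more. No paired analysis was possible because 1 pooled library was analysed, which also leaves no replicate to omit. In each of the 8 alternatives that change the members, the median width was larger inside than outside genes and intron 1 held a larger share of members than of eligible sequence. With regions of at least 400 bp the median width was 1600 bp and the density 38.1 members per Mb. With regions of at least 1000 bp these were 2200 bp and 27.3 per Mb, with 93.0% of members intronic, 43.9% in intron 1, 91.9% nearest to the host's TSS, 32.5% of genes with a member and an AP-1 match in 7.003%. Merging over gaps of up to 1000 bp gave 37.1 per Mb, 40.1% in intron 1 and 39.7% of genes. With TSS of every gene the density was 38.9 per Mb, with 93.0% intronic, 39.3% in intron 1 and 75.7% nearest to the host's TSS. With only the outermost TSS of each gene it was 44.3 per Mb, with a median width of 1600 bp, 88.9% intronic, 49.0% in intron 1, a median GC of 46% and 82.3% nearest to the host's TSS. Distance from the nearest edge gave a median of 1200 bp, 34.4 per Mb, 37.4% in intron 1, 90.2% nearest to the host's TSS and 35.9% of genes. Whole regions inside the gene gave 39.0 per Mb, 93.9% intronic, 41.8% in intron 1, 91.7% nearest to the host's TSS and 39.5% of genes. Introns of the transcript with the outermost TSS gave 42.6% in intron 1, and a window of 400 bp gave AP-1 in 14.7%. For these moves the cause was not tested. Depth, calling threshold and replicate spread could not be read from positions alone.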

Other observations

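The remaining motifs searched in the central 200 bp also had values. SP1 letters (GGGCGG), bound by factors of GC-rich promoters, were in 3.71% of members, in 2.23% of the windows beside them and in 20.5% of regions that cover a TSS. The reversed SP1 letters were in 3.62% of members and 2.40% of windows. ETS letters (CCGGAAG) were in 0.854% of members and 0.664% of windows, a ratio of 1.29, and the reversed ETS letters in 2.87% and 2.29%, a ratio of 1.26. The ETS letters hold a CpG that their reversed letters lack, whereas the SP1 letters hold one in both orders. A REST half-site (TTCAGCACC) was in 0.229% and 0.198%. The C/EBP letters (TTGCGCAA) were in 4 members and 2 windows. The median ratio of observed to expected CpG was 0.185 in members, 0.172 in the windows and 0.42 in regions that cover a TSS.

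In the lists of markers of other cells and tissues, regions covered 0% of the eligible sequence of leukocyte genes, 5.08% for endothelial and stromal genes, 12.6% for acinar and duct genes and 6.53% for genes of other tissues, against 11.5% over all protein-coding genes. A few single genes, chosen after their values were seen, lay above this. Mbp had 43.1% of its eligible sequence in regions, Krt7 91.2% and Pecam1 24.6%. Others lay below it, with 5.19% in Vwf, 1.48% in Cftr and 0.868% in Flt1. Tg, the thyroglobulin gene, held 4 members, but 4.29% of its eligible sequence lay in regions. These values are given without an explanation.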
